A study of Mus musculus with 18 samples.

Results

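The 8 mature miRNAs described here are mmu-miR-431-5p, mmu-miR-433-3p, mmu-miR-127-5p, mmu-miR-127-3p, mmu-miR-434-5p, mmu-miR-434-3p, mmu-miR-136-5p and mmu-miR-136-3p, out of 1412 mature mouse miRNAs in the deposited count table. They come from 5 hairpins that lie antisense to Rtl1 in the imprinted domain of mouse chromosome 12. They were chosen by their place in the genome and from earlier results of these data, in which the day 7 injured libraries were already known to be high, so every value that involves those libraries is a description and carries no p-value. All 8 passed the filter on low counts, which kept 428 miRNAs, but miR-127-5p passed only through the day 7 injured libraries: its level before scaling reached the filter's 4.83 reads per 1000000 in none of the other 15 (at most 4.22). It therefore had to stand high in those libraries, and counts over the members are given with and without it.

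Femoral condyle cartilage was taken from male C57bl6 mice of 12 weeks, in which a single mechanical load had ruptured the anterior cruciate ligament (ACL) of the right knee. The 18 small RNA libraries fall into 5 groups: day 1 injured (right knee, 1 day after the rupture, n = 3), day 1 contralateral (left knee of injured mice, n = 3), day 7 injured (n = 3), day 7 contralateral (n = 3) and naive mice that were not loaded (n = 6). The naive libraries are all labelled day 7, so day 1 groups set against naive also differ in the labelled day. Libraries are pools of mice: the design text gives 4 for each, but the study's methods give that number for day 7 only, and its mouse totals leave fewer for the day 1 and naive pools. Shared mice between libraries are not labelled, so the spread given here is between libraries. In the naive group it can mix differences between mice with those between knees of the same mice. Injured and contralateral knees came from the same injured animals, and the left and right knees of naive mice were pooled apart. The naive mice were too few for each library to hold different ones, so naive libraries share mice, and n = 6 treats them as independent.

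MicroRNAs are cut from a hairpin as a short duplex, and the strand from either side of the hairpin (the 5p or the 3p arm) can be loaded into an Argonaute protein, where bases 2 to 8, the seed, pair with target mRNAs. Rtl1 is a gene derived from a retrotransposon, expressed from the paternal chromosome and known for its role in the placenta and in fetal muscle. The opposite strand is transcribed from the maternal chromosome, together with Meg3, Rian and the large miRNA cluster downstream, and carries these hairpins. Because they are antisense to an exon, the miRNAs pair perfectly with the Rtl1 transcript and are known to direct its cleavage.

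The mature sequences, from RefSeq (GRCm38.p6), are shown to compare their seeds, which stand in capitals. All 8 had an entry.
mmu-miR-431-5p: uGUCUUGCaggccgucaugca
mmu-miR-433-3p: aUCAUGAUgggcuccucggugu
mmu-miR-127-5p: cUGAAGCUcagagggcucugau
mmu-miR-127-3p: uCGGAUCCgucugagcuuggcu
mmu-miR-434-5p: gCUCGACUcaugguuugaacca
mmu-miR-434-3p: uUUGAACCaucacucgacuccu
mmu-miR-136-5p: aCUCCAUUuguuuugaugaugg
mmu-miR-136-3p: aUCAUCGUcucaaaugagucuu
No seed is shared between members, and none of the 8 seeds occurs in another tested miRNA with a RefSeq sequence (365 of the 428 had one). Base composition differs between the hairpins: the GC content is 59.1% in miR-127-3p and 57.1% in miR-431-5p, against 36.4% in both arms of miR-136.

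The 5 hairpins span 4942 bases of the plus strand, from chr12:109590447-109590537 (Mir431) to chr12:109595327-109595388 (Mir136), with Mir433 at 109591715 to 109591838, Mir127 at 109592846 to 109592915 and Mir434 at 109594506 to 109594599. Rtl1 lies on the minus strand (chr12:109589193-109600330 in GENCODE on GRCm38) and has 2 exons, of which 1 is coding. The reverse complement of each of the 8 mature sequences was found once, without a mismatch, in the Rtl1 transcript and inside its coding sequence. The sites of the most abundant member and of the miR-434 arm described most fully are printed in the Rtl1 sense direction, to show that a perfectly paired target exists.
Rtl1 site of miR-127-3p, transcript bases 2642 to 2663: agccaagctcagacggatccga
Rtl1 site of miR-434-5p, transcript bases 1002 to 1023: tggttcaaaccatgagtcgagc
Rtl1 mRNA was not measured in these small RNA libraries.

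Levels are CPM (reads of a miRNA per 1000000 reads of its library) on library sizes scaled by TMM, a method that corrects for differences in library composition. Library totals ran from 758388 to 4088852 counts, and the 8 members together held between 0.205% and 0.443% of the counts of each of the 15 libraries that were not day 7 injured. The samples are labelled as chondrocytes, and the 4 chondrocyte marker miRNAs, among them miR-140-5p and miR-140-3p, were present in all libraries (summed level 5029 to 10499 CPM). Skeletal muscle miRNAs were far higher, at 55106 to 274811 CPM summed over 7 miRNAs, with miR-1a-3p and miR-206-3p the most abundant, and they varied within every group. Day 7 contralateral replicate 1 stood apart from its group: it had the highest level of the leukocyte miRNA miR-142a-3p (10184 CPM) and the lowest level of 4 members among all libraries (miR-431-5p, miR-434-5p, miR-434-3p and miR-433-3p).

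In naive cartilage the members covered almost 3 orders of magnitude. The level was 1871 ± 456 CPM (SD, n = 6) for miR-127-3p, the 54th most abundant of the 428 miRNAs by mean. It was followed by miR-434-5p (575 ± 138 CPM), miR-434-3p (322 ± 54.5 CPM) and miR-136-5p (122 ± 105 CPM). The lowest were miR-433-3p (27.9 ± 12.7 CPM), miR-136-3p (21.6 ± 7.95 CPM), miR-431-5p (14.1 ± 3.71 CPM) and miR-127-5p (2.27 ± 0.39 CPM). The ranges of miR-127-3p, miR-434-5p and miR-434-3p did not overlap with one another, and neither did those of miR-431-5p and miR-127-5p. The neighbours from miR-434-3p down to miR-431-5p did overlap with the next in order, so their order is not resolved by 6 libraries. miR-127-3p and both arms of miR-434 held 85.1% to 97.7% of the members' reads in the libraries that were not day 7 injured.

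The highest level of the series was found among the day 7 injured libraries for every member but miR-136-5p. In those libraries the members together held 0.717% ± 0.0458 of all counts (n = 3), against 0.323% ± 0.0904 in naive libraries (n = 6), 0.264% ± 0.0674 in day 7 contralateral, 0.279% ± 0.0327 in day 1 injured and 0.287% ± 0.0294 in day 1 contralateral libraries (n = 3 each). For miR-431-5p, miR-433-3p, miR-127-5p, miR-127-3p and miR-434-5p, each day 7 injured library lay above all 15 others, which was also so for 12.9% of the 428 miRNAs. For miR-127-5p the filter builds this in, which leaves 4 of the other 7 members. For miR-434-3p and miR-136-3p 1 other library was higher than the lowest day 7 injured library, and for miR-136-5p 5 others were.

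**Figure D1:**
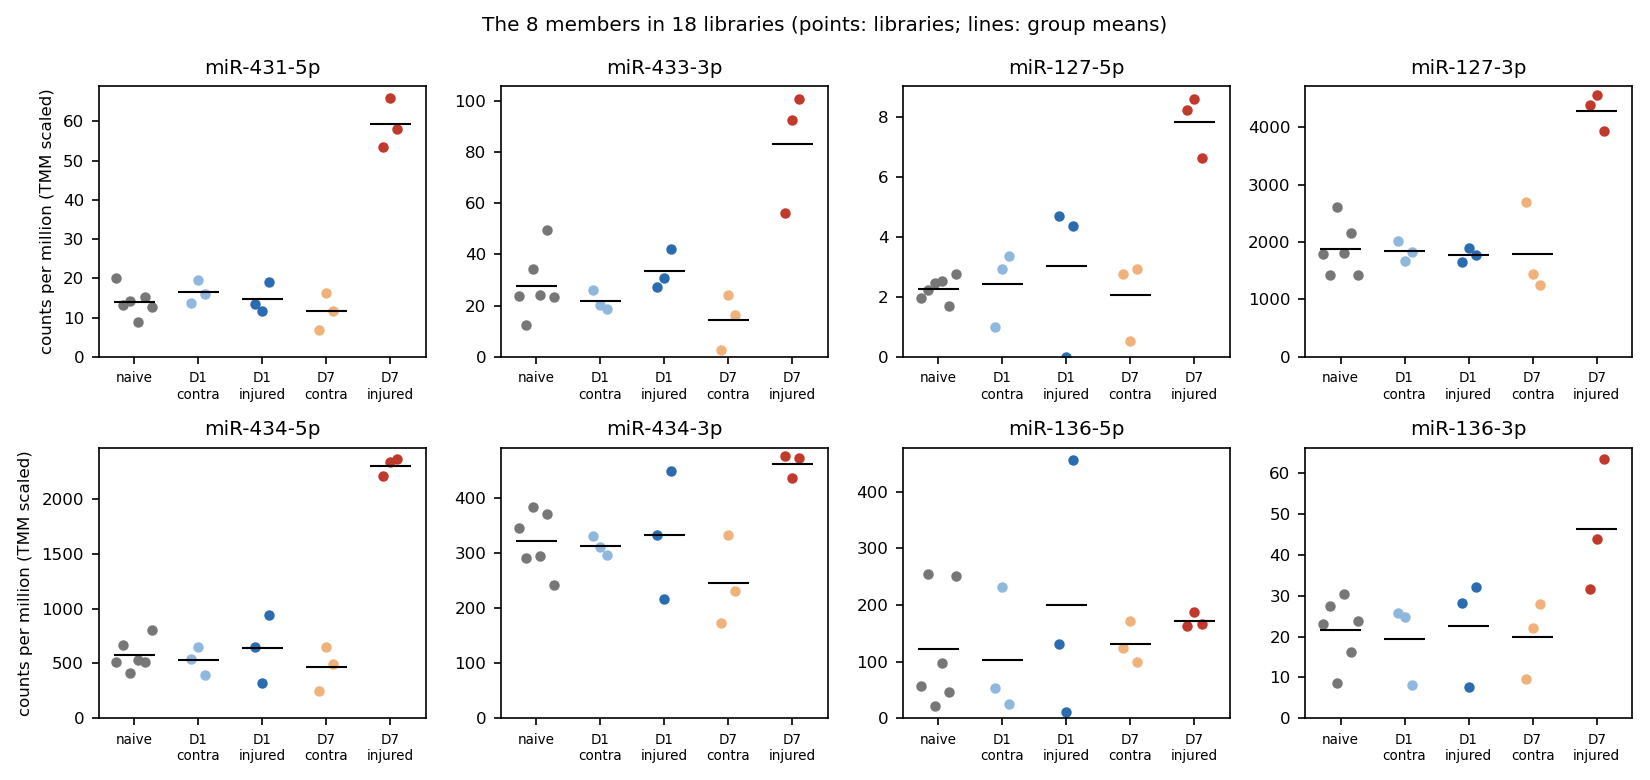
Level of each member (vertical axis, CPM) in the 18 libraries, by group (D1 and D7, days 1 and 7; contra, contralateral), with 1 point per library and a line at the group mean. The 3 day 7 injured libraries lie above all others for miR-431-5p, miR-433-3p, miR-127-5p, miR-127-3p and miR-434-5p, whereas for miR-136-5p they lie inside the range of the other libraries (11.7 to 456 CPM).

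The 5p arm of miR-434 was 2209, 2333 and 2363 CPM in the 3 day 7 injured libraries. It was 246, 654 and 499.5 CPM in day 7 contralateral libraries, 654, 325 and 945 CPM in day 1 injured libraries and 539, 649 and 399 CPM in day 1 contralateral libraries. In naive libraries it ran from 415 to 803 CPM with a median of 523. The injured libraries of day 7 were thus close to one another and at or above 2209 CPM, against at most 945 CPM in any other library, and miR-434-5p moved from rank 90 to rank 49 among the tested miRNAs. The log2 fold change was 2.03 (SE 0.31) against naive and 2.40 (SE 0.36) against the contralateral knee.

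miR-127-3p, the most abundant member and a miRNA known for repressing Bcl6, was 4392, 4555 and 3931 CPM in day 7 injured libraries. It was 2706, 1439 and 1253 CPM in the contralateral libraries of the same day, and between 1428 and 2619 CPM with a median of 1796 in naive libraries. The day 1 values were 1649.7, 1901 and 1769.9 CPM in injured and 2024, 1668 and 1822 CPM in contralateral libraries. No library of another group reached the day 7 injured level, although the contralateral replicate 1 that stood apart was the highest of the others. The log2 fold change was 1.23 (SE 0.23) against naive and 1.35 (SE 0.27) against contralateral, and 1.73 against contralateral without that library.

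The 5p arm of miR-127 was rare, at 6, 19 and 20 reads in the day 7 injured libraries and 0 to 9 reads elsewhere. In CPM it was 8.24, 8.60 and 6.64 after injury at day 7, and between 1.71 and 2.77 with a median of 2.34 in naive libraries. The single 0, in day 1 injured replicate 2, allows a level of up to 2.51 CPM (3 counts, counting error only). The groups did not overlap, but each value rests on 20 reads or fewer, and the call against naive given further on is lost without any of 8 single libraries. The call against contralateral is lost without contralateral replicate 2 (log2 fold change 1.40 in place of 2.27) and without injured replicate 2 (2.26).

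miR-431-5p, a miRNA described in muscle stem cells, was 53.6, 66.1 and 58.1 CPM in the day 7 injured libraries. Naive libraries ran from 8.83 to 20.2 CPM (median 13.7), and the day 7 contralateral libraries were 6.87, 16.2 and 11.6 CPM. All 9 other libraries of injured mice lay at or below 19.7 CPM. Of the members it had the largest log2 fold change against naive, 2.09 (SE 0.27), the 21st highest of the 428, and 2.35 (SE 0.31) against contralateral.

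miR-433-3p was 56.3, 92.8 and 101 CPM in day 7 injured libraries. The day 7 contralateral libraries were 2.75, 24.0 and 16.2 CPM, and naive libraries ran from 12.4 to 49.5 CPM (median 23.8). The lowest injured library was only just above the highest naive one, and the injured libraries differed by 1.79-fold among themselves, the widest spread of the 5 members that stood above all other libraries. The log2 fold change was 1.72 (SE 0.42) against naive and 2.77 (SE 0.52) against contralateral, which fell to 2.10 without the contralateral library at 2.75 CPM.

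The 3p arm of miR-434 and both arms of miR-136 were less clearly apart. miR-434-3p was 477, 436 and 472 CPM in day 7 injured libraries and ran from 242.5 to 385 CPM in naive ones (median 320.3), without overlap, but day 1 injured replicate 3 reached 449 CPM. Its log2 fold change was the smallest of the members against naive, 0.54 (SE 0.24), and was 0.96 (SE 0.28) against contralateral. That call was lost in 6 alternatives, with estimates from 0.79 to 0.97: without contralateral replicate 1, contralateral replicate 3 or injured replicate 3, with library totals only, with every miRNA kept, and with only the groups compared. miR-136-3p was 31.6, 43.9 and 63.4 CPM against 8.60 to 30.3 CPM in naive libraries (median 23.5), a log2 fold change of 1.18 (SE 0.45). miR-136-5p was 162, 188 and 167 CPM in day 7 injured libraries, inside the naive range of 22.1 to 254.8 CPM (median 76.9), and its log2 fold change of 1.01 had an SE of 0.87.

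Over the 8 members the median log2 fold change of day 7 injured cartilage was 1.43 against naive (range 0.54 to 2.09), beside -0.003 over all 428 miRNAs. It was 1.81 against day 7 contralateral (all miRNAs -0.050) and 1.296 against day 1 injured (all miRNAs -0.067). With limma-voom at an adjusted p below 0.05, 5 of 8 members were called higher against naive (background 18.2% of the 428 miRNAs), 6 of 8 against contralateral (background 14.7%) and 3 of 8 against day 1 injured (background 15.7%). No member was called lower. Without miR-127-5p the called members were 4, 5 and 3 of 7, and the medians 1.23, 1.35 and 1.27. The values of the groups did not overlap for 7, 7 and 5 of the 8 members in the same 3 comparisons, with backgrounds of 24.1%, 26.6% and 34.3%, and for 6, 6 and 4 of 7 without miR-127-5p. The members were chosen with these differences known, so nothing is read from the counts. These 3 comparisons share the day 7 injured libraries. miR-431-5p, miR-127-3p and miR-434-5p were the 3 members called in each of them.

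**Figure D2:**
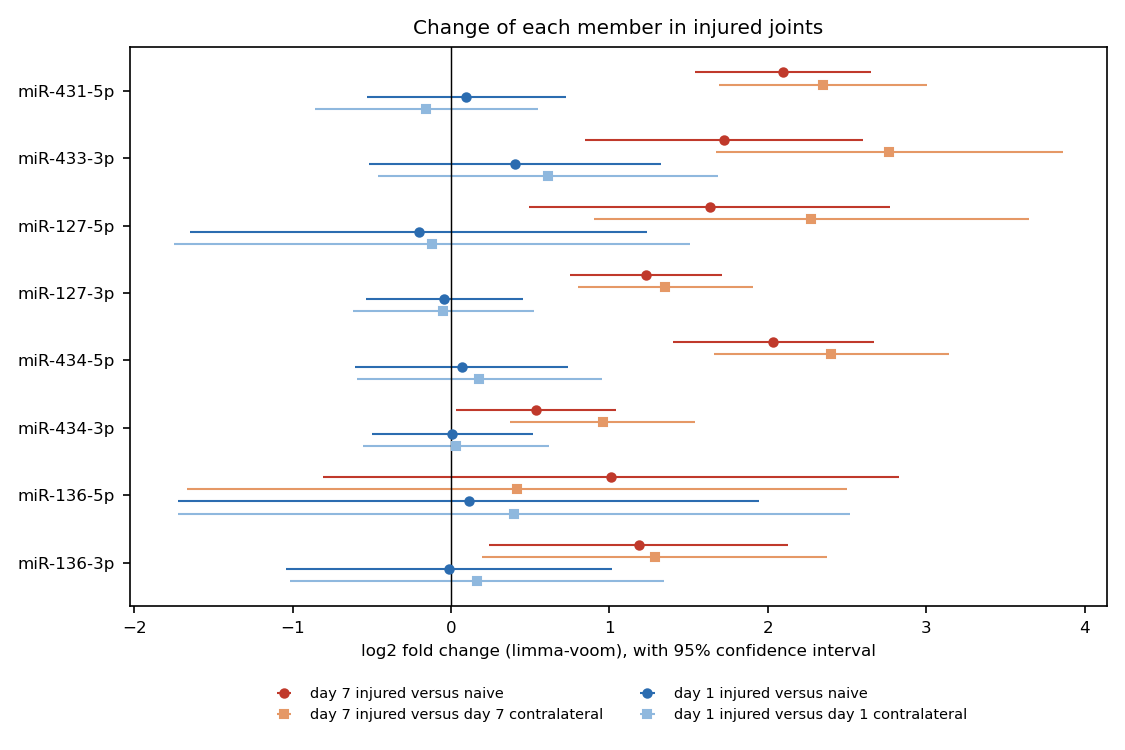
Log2 fold change of each member (horizontal axis, limma-voom, bars 95% confidence intervals) in day 7 injured cartilage (red and orange) and day 1 injured cartilage (blue), each against naive and against the contralateral knee of the same day. At day 7 the estimates run from 0.42 to 2.77, and at day 1 all intervals include 0.

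At day 1 no member passed the test. The 3 day 1 injured libraries lay inside the naive range for miR-127-3p (1649.7 to 1901 CPM), miR-431-5p (11.7 to 18.9 CPM) and miR-433-3p (27.2 to 42.3 CPM). For each of the other 5 members at least 1 of them lay outside, as for miR-434-5p, at 325 and 945 CPM against 415 to 803. miR-433-3p in day 1 injured libraries lay wholly above day 1 contralateral (18.8 to 26.1 CPM), the only 1 of the 8 without overlap there, against 8.64% of the 428 miRNAs. Against naive, 0 of 8 members were called (background 0% of the 428 miRNAs), 0 had an unadjusted p below 0.05, and the adjusted p values ran from 0.992 to 0.997 (limma-voom, Benjamini-Hochberg over all 428). Against day 1 contralateral, 0 of 8 were called (background 0%), 0 had an unadjusted p below 0.05, and the adjusted p was 0.997 for all 8. The interval was narrow for miR-127-3p, with a log2 fold change against naive of -0.04 (95% interval -0.54 to 0.46), and for miR-434-3p (0.01, -0.50 to 0.52). It was wide for miR-136-5p (0.11, -1.72 to 1.94), where it includes the day 7 estimate of 1.01, and for miR-127-5p (-0.21, -1.64 to 1.23). edgeR's quasi-likelihood test and DESeq2 called 0 members in both comparisons too.

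No member passed the test between the groups of knees that were not injured. In day 7 contralateral against naive, 0 of 8 members were called (background 0%). There, 1 member, miR-433-3p, had an unadjusted p below 0.05, with a log2 fold change of -1.04 (SE 0.49, adjusted p = 0.675 by limma-voom), and 7 of the 8 estimates were below 0 (median -0.31), which became -0.12 without replicate 1. In day 1 contralateral against naive, 0 of 8 were called (background 0%, 0 with an unadjusted p below 0.05, lowest adjusted p = 0.996 by limma-voom), with a median of -0.10. In day 7 contralateral against day 1 contralateral, 0 of 8 were called (background 0%, 0 with an unadjusted p below 0.05, lowest adjusted p = 0.789 by limma-voom), with a median of -0.33. The other count tools also called 0 members in these 3 comparisons.

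The difference between the injury effects of the 2 days was fitted as an interaction. Day 7 injured minus contralateral exceeded day 1 injured minus contralateral for 3 called members (background 6.78% of the 428 miRNAs): miR-431-5p by 2.51 (SE 0.46), miR-434-5p by 2.22 (SE 0.51) and miR-127-3p by 1.40 (SE 0.38) on the log2 scale. The median over the 8 was 1.78, beside 0.02 over all miRNAs. Without miR-127-5p, 3 of 7 members were called and the median was 1.40. For miR-136-5p the estimate was 0.02 with an SE of 1.42.

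The arms of miR-434 did not change in proportion. Both arms of miR-434 come from the same precursor, and they share a run of 9 bases near opposite ends of their sequences. In the 15 libraries that were not day 7 injured, the 3p arm made up 23.2% to 48.1% of the miR-434 reads (median 35.7%). In the day 7 injured libraries it was 17.7% (347 of 1955 reads, exact 95% binomial interval 16.1 to 19.5), 15.7% (963 of 6119, 14.8 to 16.7) and 16.7% (1422 of 8536, 15.9 to 17.5). All 3 lay below every other library. The intervals cover counting error only, since reads without molecular identifiers are not independent molecules. The group mean was 16.7% ± 1.01 (n = 3), against 36.6% ± 8.86 in naive (n = 6), 35.5% ± 5.02 in day 7 contralateral, 35.3% ± 4.15 in day 1 injured and 37.7% ± 5.13 in day 1 contralateral libraries (n = 3 each). Put as a ratio, 1.08 to 3.31 reads of miR-434-5p were counted per read of miR-434-3p elsewhere, and 4.63 to 5.35 in day 7 injured cartilage.

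Among the 111 hairpins of the table with both arms tested, the day 7 injured libraries stood apart from all others in their arm share for 3 (2.7%). These were miR-434, miR-376b and miR-23b, the last 2 named after their values were seen. miR-376b-3p averaged 1.77 CPM in naive and 14.8 CPM in day 7 injured libraries. Whether it passed the filter only through the day 7 injured libraries was not examined. If so, its high 3p share there is partly built in. The shift of the group mean from naive was the largest of the 111 for miR-434, where the 3p share fell by 19.9 percentage points. In miR-409 and miR-299a the 3p share rose by 19.8 and 19.5 points, and in miR-376b by 17.8. Their lowest libraries had 45, 32 and 16 reads, against 609 for miR-434. All of them belong to the miR-379 to miR-410 cluster of the same domain, and miR-409 and miR-299a were also named after their values were seen. A large shift was therefore not particular to miR-434. The members were chosen for their rise, so the miR-434 shift is a description of which arm carried it.

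For miR-127 and miR-136 the arm shares of the groups overlapped. The 3p arm held 99.8% of the miR-127 reads in each day 7 injured library and 99.7% to 100% elsewhere. For miR-136 the 3p share was 16.3% to 27.5% in day 7 injured libraries and 6.57% to 39.1% in the others, which is a range that covers both. miR-431-3p and miR-433-5p, the other arms of their hairpins, had 0 to 3 and 0 to 4 reads per library and did not pass the filter.

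**Figure D3:**
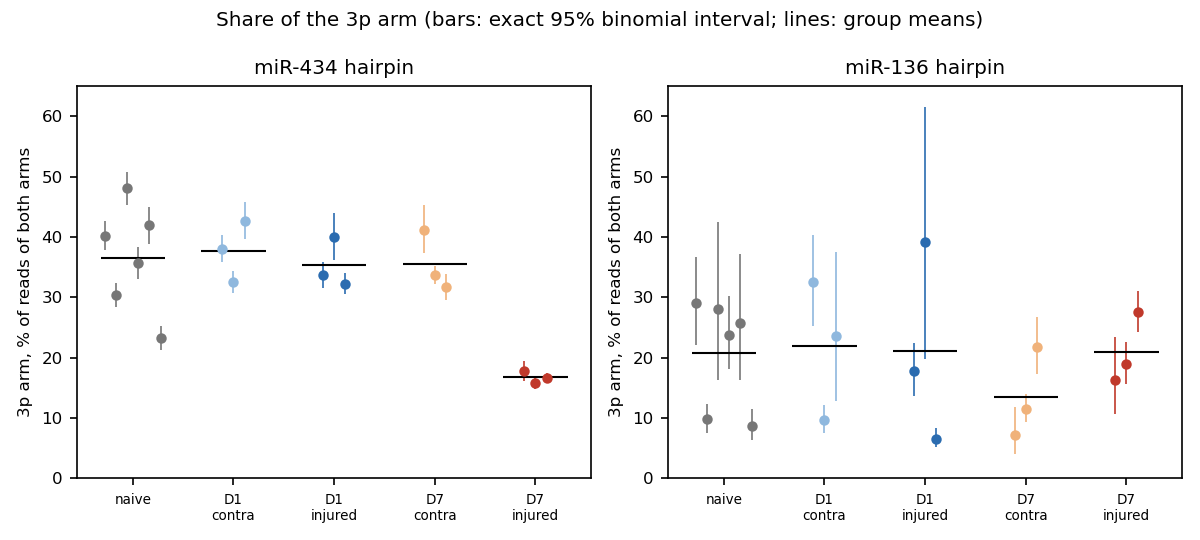
Share of the 3p arm in the reads of both arms (vertical axis, percent) for the miR-434 and miR-136 hairpins in each library, by group (D1 and D7, days 1 and 7; contra, contralateral), with exact 95% binomial intervals (counting error only) and lines at group means. For miR-434 the 3 day 7 injured libraries (15.7% to 17.7%) lie below the other 15 (23.2% to 48.1%), and for miR-136 they lie within the range of the others.

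Among naive libraries miR-136-5p had the widest range of the members, 11.5-fold. It was 131, 11.7 and 456 CPM in the 3 day 1 injured libraries and 53.3, 232 and 26.1 CPM in day 1 contralateral libraries, a 38.9-fold range over libraries that were not day 7 injured, both ends of it in the day 1 injured group. Over the same libraries miR-127-3p varied by 2.16-fold and miR-434-3p by 2.61-fold. In day 7 contralateral libraries miR-136-5p varied by 1.71-fold, the least of the members, and in day 7 injured libraries by 1.16-fold. The lowest value was in day 1 injured replicate 2, a library of 946624 counts with 55106 CPM of muscle miRNAs, the lowest muscle level of all. The highest was in day 1 injured replicate 3, a library of 2891298 counts with 274811 CPM of muscle miRNAs, the highest of all. Day 7 contralateral replicate 1, with 249876 CPM of muscle miRNAs, had 124 CPM of miR-136-5p. Naive replicates 3 and 5 were also low (22.1 and 47.0 CPM), at 1284839 and 864123 counts. The mean GC content of reads was 44.1% in both and 44.0% in day 1 injured replicate 2. By contrast, day 7 injured replicate 1 had 162 CPM at 758388 counts, and day 1 contralateral replicate 3 had 26.1 CPM at 43.2% GC. The part of library size and GC content in this spread was not tested. By correlation over the 18 libraries, the muscle miRNA miR-1a-3p ranked 29th of 427 in likeness to miR-136-5p (r = 0.63). The nearest was miR-3081-3p (r = 0.94).

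The summed level of muscle miRNAs in day 7 injured libraries was 69630 to 133943 CPM (median 105749), against 67516 to 198912 CPM (median 142867) in naive ones. None of the 6 tested muscle miRNAs was called, but all 6 estimates were below 0 (median log2 fold change -0.69, range -0.95 to -0.17). With the log2 muscle level added to the fit as a covariate, after the data were seen, the log2 fold change of miR-136-5p against naive was 1.63 in place of 1.01, and that of miR-136-3p was 1.45 in place of 1.18. That of miR-127-5p rose from 1.63 to 2.01. Those of miR-431-5p, miR-433-3p and miR-127-3p fell from 2.09, 1.72 and 1.23 to 2.05, 1.54 and 1.20. The median of the 8 members was 1.58 in place of 1.43. The part of muscle tissue in the spread of miR-136-5p was not tested. In bulk cartilage, more or fewer cells of a type and more or less RNA per cell cannot be told apart.

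**Figure D4:**
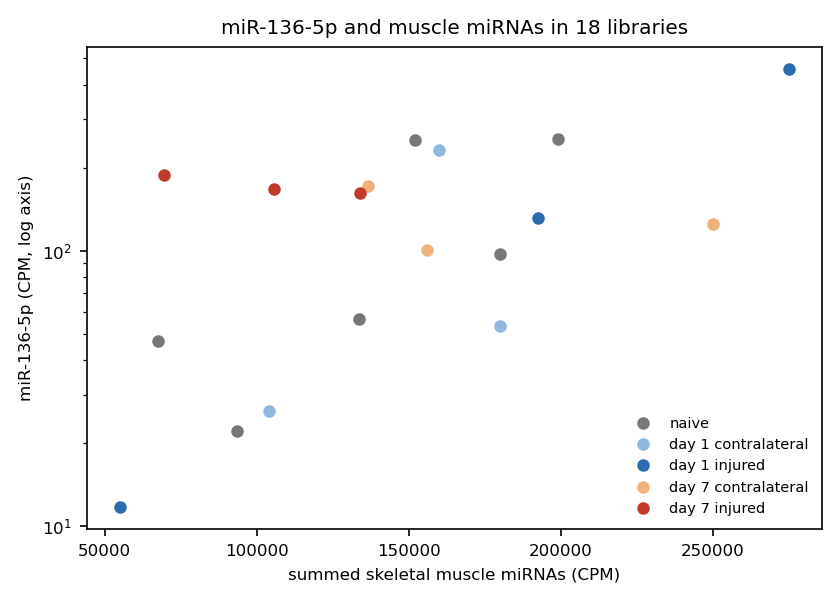
Level of miR-136-5p (vertical log axis, CPM) against the summed level of the 7 skeletal muscle miRNAs (horizontal axis, CPM) in the 18 libraries, coloured by group. The library lowest in miR-136-5p (11.7 CPM) is also the lowest in muscle miRNAs and the library highest in it (456 CPM) is the highest, while the 3 day 7 injured libraries hold 162 to 188 CPM at low to middle muscle levels.

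A second hairpin, miR-3071, lies on the minus strand across miR-136. Its 3p arm is complementary to miR-136-5p over 20 bases and its 5p arm to miR-136-3p over 19 bases, and whether reads were counted by strand is not stated, so reads of the 2 hairpins may not be fully separated. miR-3071-3p had 0 to 25 reads per library, with 6.87, 3.17 and 8.30 CPM in day 7 injured libraries and 2.56 to 5.91 CPM in naive ones (median 3.71), which overlap. miR-3071-5p had 0 to 7 reads. miR-136-5p had 14 to 938 reads per library. In day 1 injured replicate 3, 14 reads of miR-3071-3p stood beside 938 of miR-136-5p, but in naive replicate 3 they were 9 beside 36. These counts cannot show how many reads of one hairpin were counted for the other.

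The estimates of the rest of the imprinted domain were also positive. Of the 4 tested arms of the hairpins near Meg3, a long non-coding RNA upstream, 2 were called higher in day 7 injured against naive cartilage (median log2 fold change 0.97, range 0.37 to 1.48). The 2 tested arms in Rian, the next non-coding RNA downstream, were both called higher (median 2.13). In the cluster from miR-379 to miR-410, 27 of 33 tested arms were called higher and 0 lower (median 1.85, range 0.37 to 3.32). Over all 428 miRNAs 18.2% were called in this comparison, in either direction. All 3 lists had only positive estimates, as did the 8 members, and all were known to be high in these data beforehand. The tested domain arms that are not members are the 3 lists and miR-3071-3p, 40 in all. Of these, 27 were higher in every day 7 injured library than in all 15 others, against 12.9% of the 428 miRNAs. Of the 428, 10 passed the filter only through the day 7 injured libraries. How many of the 40 did so was not counted, so the 27 may include some that had to stand high. At day 1 the medians against naive were 0.14, 0.42 and -0.06 for the 3 lists and 0.04 for the members, and 0 arms were called.

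**Figure D5:**
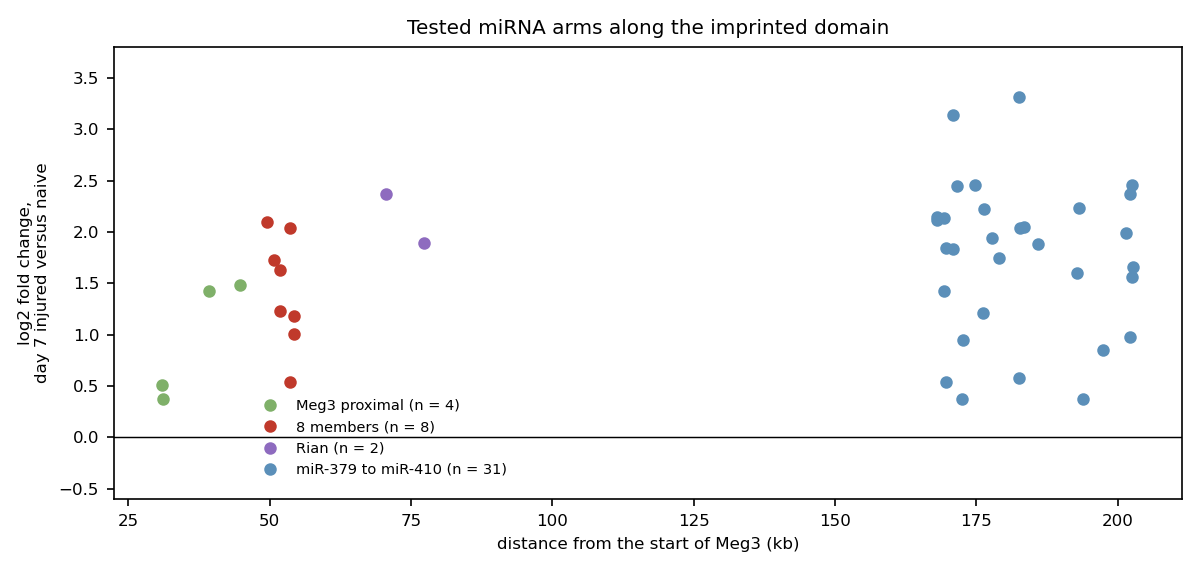
Log2 fold change in day 7 injured against naive cartilage (vertical axis) of the tested arms by distance from the start of Meg3 (horizontal axis, kb), with the 8 members in red, and 31 of the 33 arms of the miR-379 to miR-410 cluster drawn because the other 2 had no position in the sequence table. The members run from 0.54 to 2.09, among the arms near Meg3 (0.37 to 1.48) and those of the cluster (up to 3.32).

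The miRNAs whose pattern over the 18 libraries was most like the mean of the members, by Pearson correlation of log2 CPM, were miR-381-3p (r = 0.96), miR-411-5p (r = 0.93) and miR-495-3p (r = 0.92) within the domain. Their averages were 357, 356 and 25.4 CPM in naive and 1295, 961 and 97.6 CPM in day 7 injured libraries. Outside the domain they were miR-199a-3p and miR-199b-3p (both r = 0.93), whose counts are identical in every library because the mature sequences are the same, and miR-214-5p (r = 0.87), whose hairpin shares a transcript antisense to Dnm3 with a miR-199a hairpin. miR-199a-3p was 20135 CPM in naive and 44691 CPM in day 7 injured libraries on average. The libraries share the day 7 step, and the r values describe these 18 points only. Of the members, miR-434-5p was nearest to the mean of the other 7 (r = 0.97) and miR-136-5p farthest (r = 0.42).

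Markers of other cell types are given beside these values. In day 7 injured against naive libraries, 0 of 4 chondrocyte miRNAs were called (median log2 fold change 0.20), and none of the 6 endothelial and smooth muscle miRNAs, led by miR-126a-3p and miR-143-3p, was called (median 0.18). Of 7 erythroid miRNAs, among them miR-486a-5p and miR-486b-5p, 4 were called lower (median -1.10), with a summed level of 5081 to 7028 CPM against 10449 to 15996 CPM in naive libraries. miR-486a-5p and miR-486b-5p had the same lowest, median and highest level (1690, 4394 and 7771 CPM). The sum and the calls may therefore count the same reads under both names. Of 6 leukocyte miRNAs, led by miR-146a-5p and miR-142a-3p, 1 was called lower (median -0.07). The neuronal miRNA miR-124-3p had 0 reads in 17 of 18 libraries, and the other neuronal miRNAs, miR-128-3p and miR-9-5p, were not called. Their part in the members' levels was not tested.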

How the data were processed

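Small RNA libraries of mouse femoral condyle cartilage were sequenced, and the authors deposited raw read counts per mature miRNA and library, made per the study's methods with Trim Galore 0.6.6, bowtie 1.3.0 against miRBase mature sequences and SAMtools 1.12. How reads matching several miRNAs, or the opposite strand, were counted is not given in the sources used here. Each table row was tied to its sample through the shared library number, and groups came from the treatment label. The members and lists were chosen with earlier results of these data known. In R 4.3.3, filterByExpr and TMM of edgeR 4.0.16 (minimum count 10, minimum total 15) kept 428 miRNAs holding at least 99.94% of counts, and a group-means model over the 18 libraries was run with limma 3.58.1 (voom, lmFit, eBayes), with Benjamini-Hochberg adjustment over the 428. The test was run on simulated counts with known changes. The simulated libraries were independent, so that run cannot show how the test behaves where libraries share mice. Arm shares use raw counts. Log2 CPM used a prior count of 2. Named besides the members were the other arms of their hairpins, the 3 most alike miRNAs inside and outside the domain, and the 2 most abundant miRNAs of each marker list. A few others, such as miR-409 and miR-376b, were named after their values were seen. Alternatives were DESeq2 1.42.0, edgeR's quasi-likelihood test, quality weights, other scalings and filters, only the groups compared, leaving out each library and, added after seeing the data, the muscle level as a covariate. The study's model for shared pools could not be used, since the labels do not give the pools.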

Additional observations from a re-analysis of the deposited data

Results flagged for a closer look

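For 3 members the injury effect differed between the days in the interaction fit: 1.402 for miR-127-3p, 2.506 for miR-431-5p and 2.222 for miR-434-5p, as log2 differences of day 7 injured minus contralateral and day 1 injured minus contralateral. They are given without a p-value, since the members were chosen with the day 7 injured values known. Among the naive libraries no library stood far from the other 5 for the 8 member levels, the summed share or the 3 arm shares, 12 sets of values in all, where chance would flag about 1 in 20.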

How the results depend on the processing

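No paired analysis was possible because the labels give no replicate numbers: these were set in accession order and pair no libraries. The number of members called in day 7 injured against naive was 5, and 3 when at least 10 counts were required in every library, which left 5 members in the fit. Against day 1 injured 3 were called, and 5 with the muscle level as a covariate, added after seeing the data. Over all alternatives the counts were 3 to 7 against naive, 4 to 7 against day 7 contralateral, 3 to 5 against day 1 injured, 2 to 4 for the interaction, and 0 in each of the other 5 comparisons. Without day 7 contralateral replicate 1, 5 members were called against contralateral in place of 6, miR-434-3p being lost. That call was also lost with library totals only (0.94), every miRNA (0.87), only the groups compared (0.96), and without contralateral or injured replicate 3 (0.91 and 0.97). miR-127-5p lost its call against contralateral without replicate 2 of either group (1.40 and 2.26). miR-127-5p lost its call against naive with library totals only, without the filter, and without 8 of the 9 libraries in turn, so that call sits at the threshold. No member changed sign against naive or day 7 contralateral. With the muscle, erythroid and leukocyte miRNAs left out of the total, the members' share was 0.3842% in naive, 0.3465% in day 1 contralateral, 0.3344% in day 1 injured, 0.3383% in day 7 contralateral and 0.8092% in day 7 injured libraries. The median of the members at day 1 against naive ran from -0.34 to 0.38 when single libraries were left out. Of the 6 most alike miRNAs, 5 were the same with a prior count of 0.5. Low counts limit miR-127-5p most.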
